A study of Callithrix jacchus with 54 samples.

Results

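Marmoset primordial germ cell-like cells (cjPGCLCs) that had spent 70 days with mouse ovarian somatic cells were compared with cells that had spent 40 days there. The members were the 4 libraries labelled as aggregates at these times, 2 at day 40 and 2 at day 70, out of 54 libraries in the series. All 4 came from CMES40, an embryonic stem cell line of the common marmoset (Callithrix jacchus) of wild type genotype that carries the reporters BLIMP1-tdTomato (BT) and NANOS3-eGFP (NG). By the study's methods, the stem cells were first pre-treated for 1 day with the WNT agonist IM12 and activin A. The stem cells had then been turned into cjPGCLCs over 6 days in the condition labelled BLSERI (BMP4, LIF, SCF, EGF, a ROCK inhibitor and the WNT inhibitor IWR1). The cjPGCLCs were then aggregated with somatic cells of mouse embryonic ovaries from which the mouse germ cells had been removed, an aggregate called a xenogeneic reconstituted ovary (xrOvary), and BT(+) cells were sorted from the aggregates at each time. The sort thus selected on the BLIMP1 (PRDM1) reporter. The study's figure legends describe the xrOvary expression data as from BTNG-positive cells, positive for both reporters. The cells may therefore also have been selected on NANOS3. All libraries of both days came from 1 line, and the marmoset cells had mouse, not marmoset, neighbours. The mouse cells came from ICR embryos, and the aggregates spent their first 2 days in medium with added retinoic acid. The study's methods call the 2 libraries of a condition biological duplicates, and the labels do not say which aggregates a library came from.

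Primordial germ cells (PGCs) are the precursors of eggs and sperm. Early PGCs express specification factors such as SOX17, PRDM1 and TFAP2C together with pluripotency genes. Once they have reached the gonad they turn on the RNA-binding protein genes DAZL and DDX4, the PIWI-interacting RNA (piRNA) machinery that silences transposons, and, in the ovary, the genes of meiosis and of the oocyte. The comparison asks what changed in the cells between the earlier and the later time in the xrOvary.

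Expression was given as TPM, a transcript share that is corrected for gene length, over 14812 genes shared with human. The TPM totals of the 4 libraries lay between 817100 and 819940, and 11627 to 11824 genes were above 0. No read counts were used here, so the depth behind a value is unknown. A value of 0 can also be a failed estimate, since CDK1, which dividing cells need, was at 0 to 0.31 TPM in the 4 libraries beside 243 to 272 TPM of its partner CCNB1, and the widely expressed FN1 was at 0 in all 4. A gene is therefore only said to be listed at 0. On the log2(TPM + 1) scale the correlation across genes was 0.991 between the day 40 libraries and 0.993 between the day 70 libraries, against 0.983 to 0.985 between the days (genes are not independent replicates). Fold changes are differences of the mean log2(TPM + 1), day 70 minus day 40, which understates the change of genes with low values. They were tested with limma over all 54 libraries with Benjamini-Hochberg adjustment over the 11197 genes that passed a filter on low values (1.5 or more on the log2 scale in at least 1 library). Below, a gene rose or fell if its adjusted p was under 0.05, and it was a differentially expressed gene (DEG) if its change also exceeded 4-fold, its adjusted p was below 0.01 and its log2 level averaged more than 1.5.

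By these thresholds 14 genes were DEGs higher at day 70 (0.125% of the genes tested) and 10 were DEGs lower at day 70 (0.0893%). The first count includes DAZL, for whose rise these days were chosen, and is 13 without it. At the adjusted p of 0.05 alone, 138 genes rose (1.23%) and 427 fell (3.81%), and 77 of the first and 158 of the second changed over 2-fold. Among the 138 were 27 of the 51 genes that passed the filter on low values only through the day 70 libraries. Such genes were tested because they were high at day 70, so the filter partly set the count of genes that rose. Without the filter 178 of 14394 genes rose (1.24%). The median change of all genes was -0.05. The higher share among these genes depended on the scaling between libraries, with 138 of 565 genes higher (24.4%) on the deposited values, 207 of 566 (36.6%) after median-ratio scaling and 213 of 527 (40.4%) after quantile normalization. The adjusted p-values rest on the spread pooled over 54 libraries. Fitted on the 4 libraries of day 40 and day 70 alone, limma passed 0 genes at an adjusted p of 0.05, although 2217 passed an unadjusted p of 0.05, against 1645 in the fit of all libraries.

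**Figure D1:**
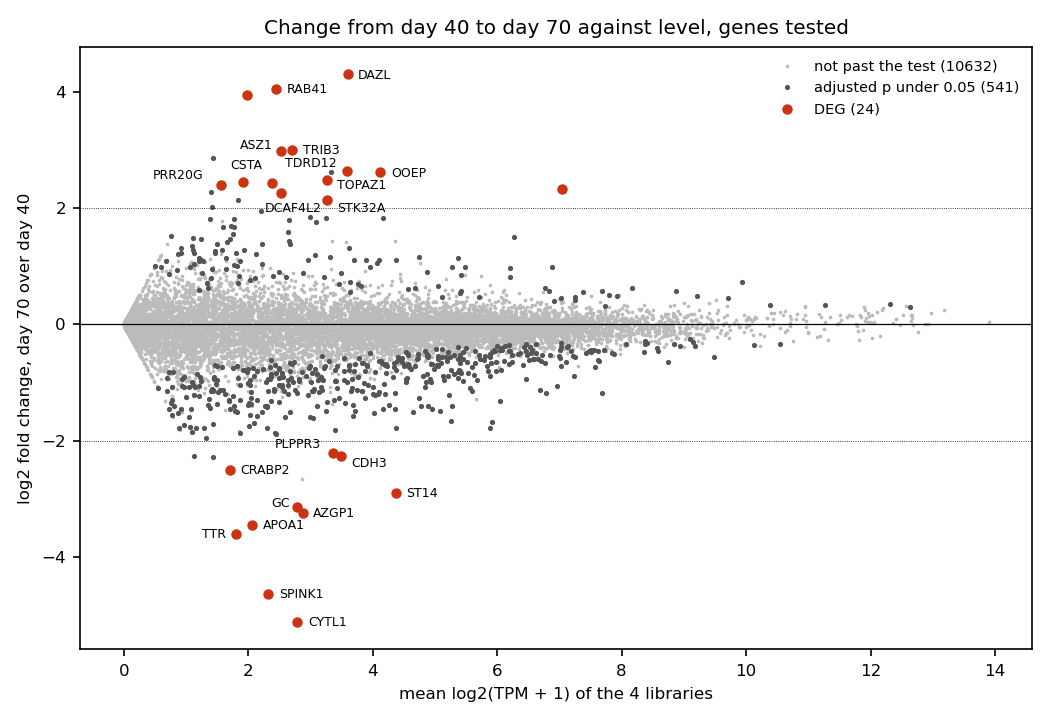
Change from day 40 to day 70 (y axis, log2 fold change) against level (x axis, mean log2(TPM + 1) of the 4 libraries) for the 11197 genes tested, with each gene as a point. Red points are the 24 DEGs, DAZL included, of which the 21 with a gene symbol are named, dark points are the other genes with an adjusted p under 0.05, and dotted lines mark 4-fold.

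DAZL, an RNA-binding protein that marks germ cells after they have entered the gonad, was at 1.64 and 1.81 TPM in the day 40 libraries and at 51.9 and 53.9 TPM in the day 70 libraries. The means differed 30.7-fold, and the libraries of one day were close to each other. The comparison of these days was proposed for this gene, so its values are given without a test. DAZL was listed at 0 in both libraries of day 6 cjPGCLCs and reached at most 0.39 TPM in the xrOvary at day 20.

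DDX4 (VASA), an RNA helicase of the germ granule, was at 0.51 and 0.62 TPM at day 40 and at 2.42 and 2.48 TPM at day 70. It rose by a log2 fold change of 1.14 (SE 0.20, adjusted p = 0.000192), while it stayed far below DAZL in TPM. All 4 libraries of day 6 and day 20 listed it at 0. With a pseudocount of 0.1 in place of 1 the adjusted p of DDX4 was 0.123.

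ADAD1, an RNA-binding protein of germ cells, went from 58.2 and 50.8 TPM to 96.1 and 96.9 TPM (log2 fold change 0.82, SE 0.23, adjusted p = 0.027). This call was lost without any 1 of the 4 libraries (adjusted p between 0.0867 and 0.219). With DAZL set aside, DDX4 and ADAD1 were the 2 of 20 tested late germ cell genes that rose, none fell, and 28 genes of the list were in the table. DDX4 passed the filter on low values only through the day 70 libraries, where it was high, so the count cannot stand for the list. Among the genes that did not pass, MAEL was at 47.0 and 32.5 TPM and then at 69.4 and 72.4 TPM (adjusted p = 0.0623), and KHDC3L was high at both times, with 450 and 433 TPM and then 502 and 479 TPM. DMRT1, a transcription factor of the gonad and germ line, was at 34.6 and 34.8 TPM at day 40 and at 38.9 and 29.8 TPM at day 70.

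The piRNA pathway held further genes that rose. ASZ1, a scaffold protein on the outer membrane of mitochondria in germ cells, went from 1.38 and 0.77 TPM to 14.2 and 16.5 TPM (log2 fold change 2.99, SE 0.24, adjusted p = 2.17e-11). TDRD12, a Tudor domain protein of piRNA production, went from 4.19 and 3.48 TPM to 26.6 and 32.1 TPM (log2 fold change 2.65, SE 0.25, adjusted p = 8.47e-10). Both were DEGs. ASZ1 passed the filter on low values only through the day 70 libraries, so it was tested because it was high there.

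MORC1, which acts in transposon silencing in germ cells, was low throughout, with 0.53 and 0.09 TPM at day 40 and 2.42 and 2.82 TPM at day 70 (log2 fold change 1.48, SE 0.22, adjusted p = 1.09e-05). PIWIL2, a PIWI protein that binds piRNAs, was at 0.94 and 1.01 TPM and then at 2.37 and 2.10 TPM (log2 fold change 0.71, SE 0.17, adjusted p = 0.00606). Its call was lost with a pseudocount of 0.1 (adjusted p = 0.425), without day 40 replicate 1 (0.0728) and without day 70 replicate 1 (0.0918). Of the 28 listed piRNA pathway genes, 21 passed the filter on low values, and 4 of these, ASZ1, MORC1, PIWIL2 and DDX4, passed it only through the day 70 libraries, where they were high. A gene kept in this way had to differ between the days, so no count over the tested genes is read for this list. Without the filter 7 of 27 genes of the list rose, TDRD9 and RNF17 besides the 5 named here, and 1.24% of all genes rose in that fit. TDRD9 was at 1.12 and 0.39 TPM and then at 1.38 and 1.54 TPM, and RNF17 at 2.12 and 1.62 TPM and then at 2.93 and 2.64 TPM. With a pseudocount of 0.1 in place of 1 only 3 genes of the list rose.

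The piRNA genes that did not pass were mostly already well above 0 at day 40. TDRKH was at 206 and 211 TPM and then at 217 and 228 TPM, and TDRD1 at 60.1 and 49.4 TPM and then at 60.0 and 63.5 TPM. MOV10L1, a helicase of piRNA processing, was at 53.2 and 37.2 TPM and then at 57.4 and 66.5 TPM. GTSF1, a factor of the same pathway, was at 15.8 and 8.18 TPM and then at 29.2 and 36.5 TPM, with no overlap between the days, and did not pass (log2 fold change 1.44, adjusted p = 0.246). FKBP6 and TEX15 were listed at 0 in all 4 libraries.

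**Figure D2:**
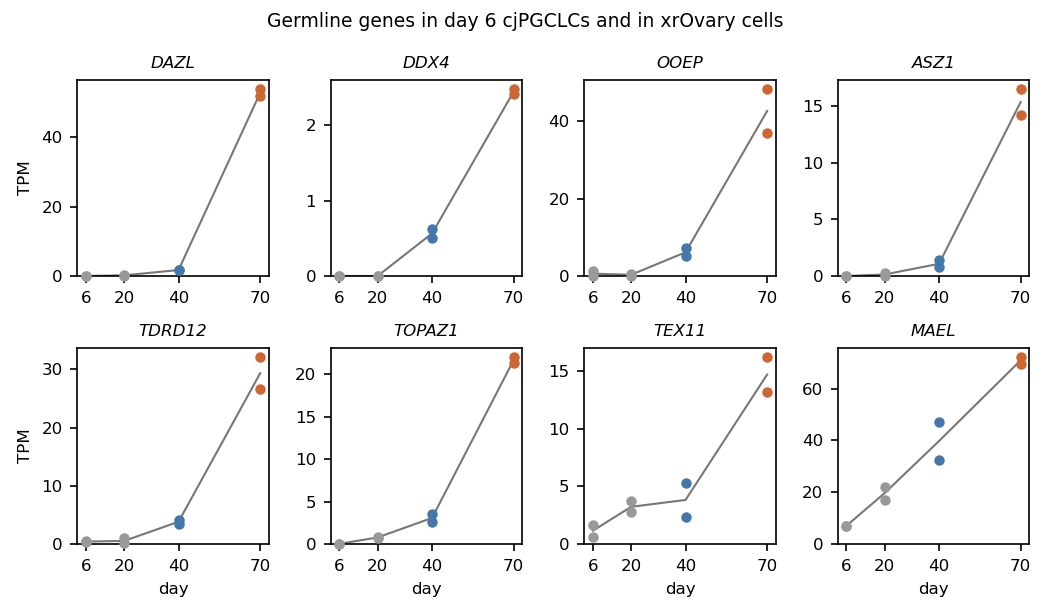
TPM (y axes, each from 0) of germ cell genes at day 6 (cjPGCLCs) and at days 20, 40 and 70 in the xrOvary (x axes), with each of the 2 libraries per day as a point and a line through the means. DAZL, ASZ1, TDRD12 and OOEP are near the bottom of their panels until day 40 and high at day 70.

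Of 23 tested genes of meiotic prophase, 3 rose and none fell. The list had 40 genes in the table, and SHOC1 passed the filter on low values only through the day 70 libraries, where it was high. The count therefore cannot stand for the list. Without the filter 4 of 39 genes of the list rose, against 1.24% of all genes in that fit. TEX11, a protein of meiotic crossover formation, went from 2.35 and 5.30 TPM to 13.2 and 16.2 TPM (log2 fold change 1.77, SE 0.31, adjusted p = 0.000168). SHOC1, which acts in the same process, went from 0.91 and 0.67 TPM to 3.35 and 3.28 TPM (log2 fold change 1.27, SE 0.17, adjusted p = 1.65e-06, and 0.0888 with a pseudocount of 0.1). TERB2, which attaches telomeres to the nuclear envelope in meiosis, went from 21.0 and 20.0 TPM to 41.9 and 37.0 TPM (log2 fold change 0.91, SE 0.17, adjusted p = 0.000543). For TERB2 the day 6 cells were already at 30.0 and 23.1 TPM.

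Several genes of meiotic entry and of the synaptonemal complex were listed at or near 0, with the limit on such values given above. STRA8, the retinoic acid-induced gatekeeper of meiotic entry, was at 0 and 0.30 TPM at day 40 and listed at 0 in both libraries at day 70. SPO11, the enzyme that makes meiotic double-strand breaks, MEI1 and SYCE2 were listed at 0 in all 4 libraries. SYCP1, a central part of the synaptonemal complex, was listed at 0 at day 40 and was at 0.23 and 0.09 TPM at day 70, and SYCP3 was at 0 and 0.85 TPM at day 70. Not all genes of the complex were near 0. SYCE3 was at 22.2 and 9.98 TPM and then at 17.8 and 25.2 TPM. SYCE1 was at 2.97 and 3.38 TPM and then at 5.21 and 3.71 TPM, and neither passed the test. REC114, a partner of the break-forming machinery, was at 56.9 and 70.3 TPM and then at 68.4 and 69.0 TPM, so its level did not differ beyond the spread (adjusted p = 0.988).

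OOEP, a member of the subcortical maternal complex of the oocyte, went from 5.05 and 7.20 TPM to 48.2 and 37.1 TPM, 6.96-fold between the means (log2 fold change 2.62, SE 0.45, adjusted p = 0.000126). Its adjusted p was 0.171 with a pseudocount of 0.1, and before day 40 it was at 0 to 1.2 TPM. OOEP was the only 1 of 21 tested oocyte genes to rise (4.76%) and none fell, against 1.23% and 3.81% of all genes tested. The list median was 0.00. NOBOX and LHX8, transcription factors of the primordial follicle oocyte, and the zona pellucida gene ZP4 were listed at 0 in all 4 libraries. FOXR1 was at 29.3 and 32.2 TPM and then at 31.1 and 38.0 TPM, and DPPA3 at 75.2 and 63.9 TPM and then at 75.1 and 68.2 TPM.

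**Figure D3:**
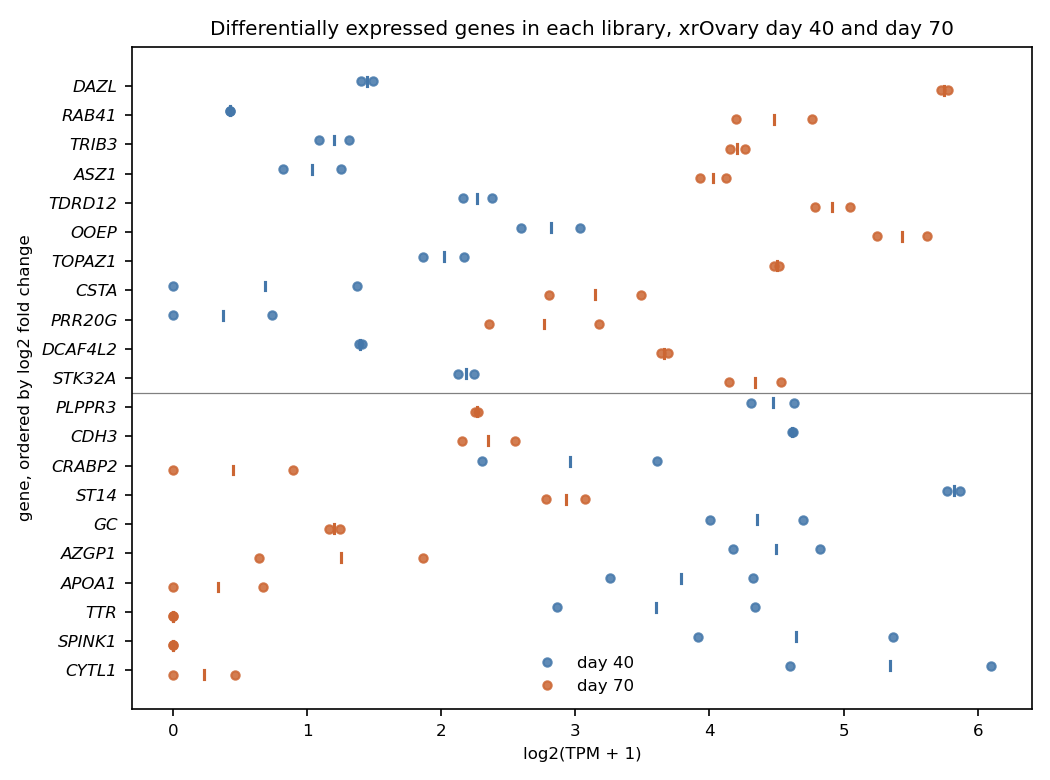
Level (x axis, log2(TPM + 1)) of the 21 DEGs with a gene symbol, DAZL included (y axis, ordered by log2 fold change), with blue points for the 2 day 40 libraries, orange points for the 2 day 70 libraries and a tick at each mean. The genes were selected for a large difference between the 2 days, and in each gene the points of the 2 days do not overlap.

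The other DEGs higher at day 70 were of mixed function. RAB41, a small GTPase of the Rab family, was at 0.34 TPM in both day 40 libraries and at 17.4 and 26.1 TPM at day 70 (log2 fold change 4.06, SE 0.21, adjusted p = 1.37e-16). It was listed at 0 in all libraries of day 6 and day 20. TOPAZ1, a germ cell protein known for its need in male meiosis, went from 3.50 and 2.65 TPM to 21.4 and 22.0 TPM (log2 fold change 2.48, SE 0.23, adjusted p = 8.83e-10). DCAF4L2 went from 1.65 and 1.62 TPM to 11.9 and 11.4 TPM, and the kinase gene STK32A from 3.75 and 3.37 TPM to 22.2 and 16.7 TPM. These 4 genes passed the adjusted p of 0.05 in each fit that left out 1 library.

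CSTA, an inhibitor of cysteine proteases, was at 1.59 and 0 TPM and then at 10.2 and 5.97 TPM (log2 fold change 2.46, SE 0.49, adjusted p = 0.000831), and its adjusted p was 0.0908 without day 40 replicate 2. PRR20G was at 0 and 0.67 TPM and then at 4.13 and 8.05 TPM (log2 fold change 2.40, SE 0.47, adjusted p = 0.00075), and it belongs to a family of near-identical copies between which reads may be split. Of 3 further DEGs with a locus number only, LOC100386748 was at 48.8 and 68.5 TPM and then at 257 and 337 TPM, and LOC103789009 at 1.67 and 0.88 TPM and then at 10.7 and 11.6 TPM. LOC118150527 was listed at 0 in both day 40 libraries and at 35.4 and 5.64 TPM at day 70. These genes were selected for being higher at day 70, and in every one the libraries of day 70 lay above those of day 40.

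A second group of genes that were higher at day 70 belongs to the amino acid and unfolded protein response, in which the transcription factor ATF4 turns on genes for the synthesis and uptake of amino acids. Of 20 tested genes of this list 10 rose and none fell, against 1.23% and 3.81% of all genes tested. The list median was 0.31, and that of all genes tested was -0.05. TRIB3, a pseudokinase that ATF4 induces, was a DEG, with 1.49 and 1.13 TPM at day 40 and 18.2 and 16.8 TPM at day 70 (log2 fold change 3.0, SE 0.36, adjusted p = 2.3e-07). PHGDH, the first enzyme of serine synthesis, went from 46.3 and 43.7 TPM to 140 and 118 TPM (log2 fold change 1.5, SE 0.12, adjusted p = 2.5e-11). CHAC1, which degrades glutathione, went from 4.01 and 4.07 TPM to 18.7 and 15.3 TPM (log2 fold change 1.83, SE 0.35, adjusted p = 0.000483).

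The next enzyme of serine synthesis, PSAT1, rose by 1.14 (log2), asparagine synthetase, ASNS, by 0.98, and the amino acid transporter SLC7A5 by 0.98. HERPUD1, a protein of endoplasmic reticulum quality control, rose by 1.16. ATF4 itself was at 503 and 500 TPM and then at 697 and 707 TPM (log2 fold change 0.48, SE 0.11, adjusted p = 0.00659), with an adjusted p of 0.0543 to 0.0661 when any 1 of the 4 libraries was left out. MTHFD2 and SLC7A11 also passed, but the call of MTHFD2 was lost without any 1 of the 4 libraries (adjusted p between 0.135 and 0.27) and that of SLC7A11 without 3 of them (0.0733 to 0.416). These fits kept 7 to 8 of the 10 calls. The 10 tested genes of the list that did not pass included the chaperones of the endoplasmic reticulum and their regulator XBP1. They also included SHMT2 (log2 fold change 0.15), CTH (0.10), DDIT4 (-0.09) and VLDLR (-0.07). HSPA5 (BiP) was at 1068 and 1005 TPM and then at 1015 and 991 TPM (log2 fold change -0.05), XBP1 was at 0.00, CALR at -0.14 and PDIA4 at -0.17 on the same scale.

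**Figure D4:**
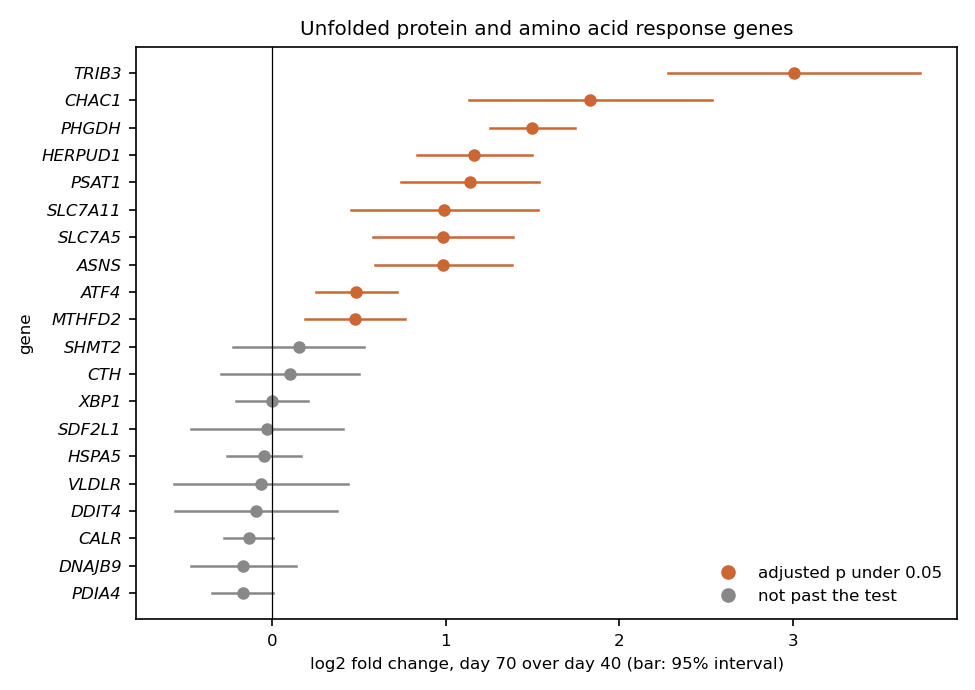
Log2 fold change, day 70 over day 40 (x axis, point with its 95% confidence interval from limma), of the 20 tested genes of the amino acid and unfolded protein response (y axis). TRIB3, CHAC1 and PHGDH lie farthest to the right, and HSPA5, XBP1, CALR and PDIA4 lie near 0.

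The genes that fell most code for secreted proteins, several of which are known from liver and yolk sac endoderm. CYTL1, a small secreted protein, went from 67.6 and 23.2 TPM to 0 and 0.38 TPM (log2 fold change -5.12, SE 0.42, adjusted p = 2.5e-11). SPINK1, a trypsin inhibitor, was at 40.4 and 14.1 TPM at day 40, and TTR (transthyretin) at 6.27 and 19.3 TPM. Both were DEGs and were listed at 0 in both libraries of day 70, so no fold is given. APOA1, the main protein of high-density lipoprotein, went from 19.0 and 8.58 TPM to 0.59 and 0 TPM (log2 fold change -3.46, SE 0.42).

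GC, the vitamin D-binding protein of plasma, went from 25.0 and 15 TPM to 1.37 and 1.24 TPM, and AZGP1, a secreted glycoprotein, from 17.1 and 27.3 TPM to 2.64 and 0.56 TPM. The day 40 libraries differed from each other in these genes, and not in 1 direction, since CYTL1, SPINK1, APOA1 and GC were higher in replicate 1 and TTR and AZGP1 in replicate 2. All 6 genes kept an adjusted p under 0.05 without any 1 of the 4 libraries. APOA1 and GC were also expressed in day 6 cjPGCLCs (26.2 and 33.8 TPM for APOA1), where TTR and SPINK1 were listed at 0.

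The list of endoderm markers had 3 of 12 tested genes lower (TTR, APOA1 and AFP), against 3.81% of all genes tested. None was higher, and the median was -0.13. AFP rested on 1 library, with 7.59 and 0 TPM at day 40 and 0 in both libraries at day 70, and without day 40 replicate 1 nothing of its change was left (adjusted p = 1). The summed level of the list was 41.4 and 33.5 TPM at day 40 and 7.98 and 6.84 TPM at day 70. Its transcription factors did not pass, and each was under 3 TPM in all 4 libraries, with GATA6 at 1.85 TPM in both day 40 libraries and at 2.60 and 0.87 TPM at day 70, and FOXA2 at 1.32 and 0.48 TPM and then at 1.48 and 1.24 TPM. Fewer cells with such transcripts and less of them per cell cannot be told apart in these pooled cells.

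Some genes of epithelial cells fell as well. ST14 (matriptase), a serine protease on epithelial surfaces, went from 53.6 and 57.6 TPM to 7.43 and 5.86 TPM (log2 fold change -2.89, SE 0.19, adjusted p = 6.06e-14). CDH3 (P-cadherin) went from 23.7 and 23.5 TPM to 3.45 and 4.86 TPM (log2 fold change -2.27, SE 0.13, adjusted p = 8.66e-15). The libraries of 1 day were close in both genes. In day 6 cjPGCLCs ST14 was at 358 and 351 TPM and CDH3 at 96.1 and 87.7 TPM, so that day 70 was the lowest of 4 days in mean level for each of them.

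Of 9 tested genes of the epithelial list 4 fell and none rose (median -0.41), against 3.81% of all genes tested that fell. KRT19 was the only keratin among the 4. KRT8, at 187 and 184 TPM and then at 127 and 154 TPM, did not pass (adjusted p = 0.106 in limma). Nor did KRT18, at 76.6 and 78.1 TPM and then at 61.0 and 61.5 TPM (adjusted p = 0.221). KRT15, KRT17 and KRT80 reached at most 0.97 TPM and had positive changes that did not pass. KRT19 was at 3.49 and 6.84 TPM and then at 0.78 and 1.46 TPM (log2 fold change -1.5, SE 0.20, adjusted p = 1.67e-06), and CDH1 (E-cadherin) at 23.6 and 21.1 TPM and then at 9.50 and 10.7 TPM (log2 fold change -1.07, SE 0.19, adjusted p = 0.000168). The tight junction genes CLDN7 and CLDN6 fell by 0.82 and by 0.67 on the log2 scale, and the second lost its call under both other scalings (adjusted p = 0.108 and 0.1). EPCAM, an adhesion protein shared by epithelia and PGCs, fell from 264 and 297 TPM to 207 and 185 TPM (log2 fold change -0.51, SE 0.12, adjusted p = 0.00429, and 0.11 without day 40 replicate 2). PLPPR3, a membrane protein related to lipid phosphatases, was the remaining DEG of this kind of profile, at 79.2 and 67.2 TPM at day 6, 23.8 and 18.8 TPM at day 40 and 3.84 and 3.77 TPM at day 70.

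**Figure D5:**
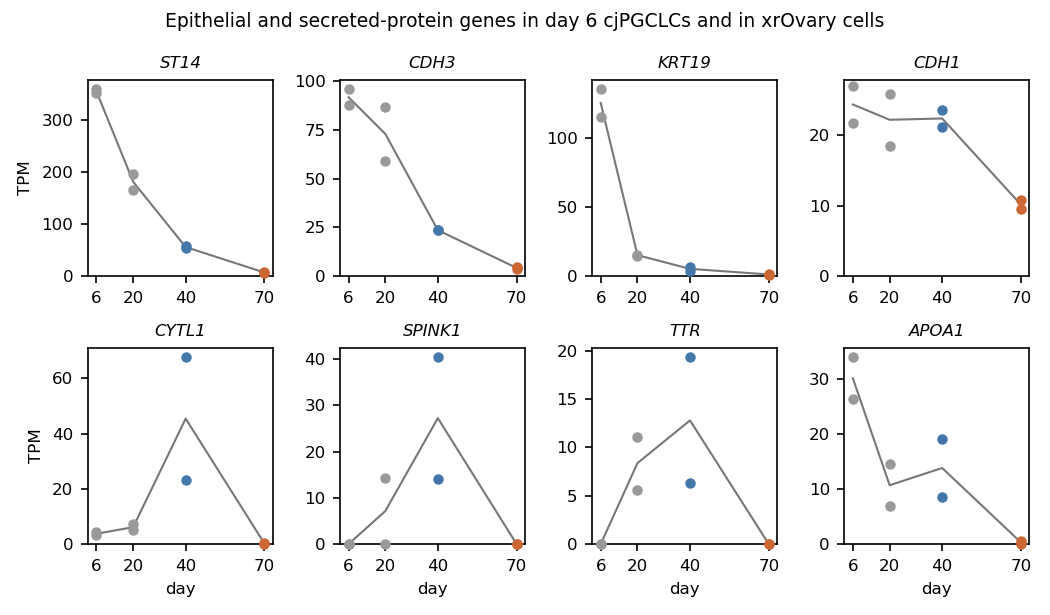
TPM (y axes, each from 0) of epithelial genes (upper row) and genes of secreted proteins (lower row) at day 6 (cjPGCLCs) and at days 20, 40 and 70 in the xrOvary (x axes), with each library as a point and a line through the means. The epithelial genes are highest at day 6, whereas CYTL1, SPINK1 and TTR have their highest mean at day 40.

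Retinoic acid, which the gonad uses to start meiosis in females, acts through nuclear receptors and is made, bound and degraded by dedicated proteins. Of 16 tested genes of this kind 4 fell (median -0.27), a share of 25% against 3.81% of all genes tested. CRABP2, a retinoic acid-binding protein, was a DEG and went from 3.94 and 11.2 TPM to 0.86 and 0 TPM (log2 fold change -2.51, SE 0.36, adjusted p = 7.42e-06). CYP26A1, which degrades retinoic acid, was at 1.87 and 1.83 TPM and then at 0.17 and 0 TPM, ALDH1A3, which makes it, at 3.47 and 3.50 TPM and then at 1.1 and 0.99 TPM, and the receptor gene RARG at 4.79 and 7.09 TPM and then at 2.62 and 3.94 TPM. Leaving out 1 library left 1 to 2 genes of the list lower, CRABP2 in each case.

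Immediate early genes, which respond within minutes to signals, were listed together with heat shock genes. Of 22 tested genes 7 fell and 1 rose (median -0.43), against 3.81% and 1.23% of all genes tested. In 15 of the 22 both day 70 libraries lay below both day 40 libraries, against 32.2% of all genes tested. EGR1 was at 148 and 78.9 TPM and then at 27.4 and 34.7 TPM (log2 fold change -1.78, SE 0.38, adjusted p = 0.00227), and JUNB at 223 and 101 TPM and then at 56.4 and 83.3 TPM (log2 fold change -1.12, SE 0.30, adjusted p = 0.0174). In both, day 40 replicate 1 was the highest library. Without it 1 of the 22 genes fell, ZFP36, which was at 7.40 and 4.83 TPM and then at 1.32 and 0.58 TPM, and without day 70 replicate 1 the count was 2. The gene that rose, ATF3, was at 0.19 and 0.51 TPM and then at 2.23 and 2.61 TPM, and it did not pass without any 1 of the 4 libraries (adjusted p between 0.0785 and 0.275). FOS was at 145 and 41.3 TPM and then at 26.9 and 36.2 TPM and did not pass.

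The genes that define PGCs were expressed at both times. The reporter gene PRDM1 (BLIMP1), on which the cells had been sorted, was at 147 and 143 TPM and then at 120 and 131 TPM (adjusted p = 0.801). The other reporter gene, NANOS3, on which the cells may also have been sorted, was at 144 and 132 TPM and then at 110 and 99.3 TPM (log2 fold change -0.39, adjusted p = 0.655). SOX17 was at 337 and 309 TPM and then at 256 and 290 TPM, and TFAP2C at 691 and 713 TPM and then at 549 and 574 TPM. Of 19 tested PGC genes 1 fell (EPCAM), a share of 5.26% against 3.81% of all genes, and none rose. The median was -0.21, and in 10 of the 19 both day 70 libraries lay below both day 40 libraries, against 32.2% of all genes.

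Of 30 tested pluripotency genes 1 rose and 2 fell (median -0.08), shares of 3.33% and 6.67% against 1.23% and 3.81% of all genes tested. POU5F1 was at 4956 and 4788 TPM and then at 4194 and 4257 TPM (log2 fold change -0.21, adjusted p = 0.303), and NANOG at 758 and 829 TPM and then at 770 and 800 TPM. SOX2 was listed at 0 at day 40 and was at 0.44 and 0.65 TPM at day 70. TERT, the catalytic subunit of telomerase, was at 19.3 and 21.3 TPM and then at 7.77 and 9.45 TPM (log2 fold change -1.15, SE 0.28, adjusted p = 0.00898), NODAL at 3.75 and 8.18 TPM and then at 1.75 and 1.37 TPM, and OTX2, which passed the filter only through day 70, at 0.72 and 0.79 TPM and then at 2.06 and 2.46 TPM. Each of these 3 calls was lost in at least 1 of the fits that left out a library, and without either day 40 replicate 2 or day 70 replicate 1 none of the list fell.

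Markers of other cells were checked in the same libraries, since the aggregates hold mouse cells and reads of mouse transcripts may map to marmoset genes. None of 14 tested markers of gonadal supporting cells passed the test, 6 of 22 in the table were listed at 0 in all 4 libraries, the steroidogenic factor NR5A1 and the enzymes CYP17A1 and CYP11A1 among them, and FOXL2, which defines granulosa cells, reached at most 0.24 TPM. SOX9 was the highest of this list at 7.30 and 5.45 TPM and then at 4.75 and 4.88 TPM, and AMH was at 1.35 and 1.1 TPM and then at 0.24 and 0.14 TPM. Their summed level was 16.2 and 12.7 TPM at day 40 and 9.49 and 11.3 TPM at day 70, against 16.7 and 15.5 TPM in day 6 cells that had not met mouse cells. Similar sums did not mean the same genes. IRX3 held most of the day 6 sum, at 11.45 and 9.74 TPM, and was at 1.81 and 0.82 TPM at day 40. SOX9 and AMH were lower at day 6 than at day 40, at 3.10 and 1.94 TPM and at 0 and 0.27 TPM. Of 19 tested stromal markers VIM fell (from 301 and 319 TPM to 123 and 151 TPM) and SPARC rose (from 383 and 386 TPM to 554 and 590 TPM), while PDGFRA was at 20.3 and 21.7 TPM and then at 18.0 and 19.5 TPM, FBN1 at 14.8 and 13.1 TPM and then at 14.7 and 15.1 TPM, and COL5A1 at 5.09 and 4.6 TPM and then at 2.26 and 3.02 TPM. DCN and COL3A1 were under 0.5 TPM, and LUM and TCF21 were listed at 0. In 8 of the 19 both day 70 libraries lay below both day 40 libraries, and in 4 above, against 32.2% and 16.9% of all genes tested. The summed level of the stromal list was 733 and 751 TPM and then 719 and 785 TPM. None of 12 endothelial and blood markers and none of 10 amnion and trophoblast markers passed. Of 7 tested neural markers 2 fell, against 3.81% of all genes tested. NES went from 4.64 and 6.28 TPM to 1.22 and 1.87 TPM and ELAVL3 from 18.2 and 17.2 TPM to 5.77 and 9.57 TPM. The call of ELAVL3 was lost without either day 40 library and without day 70 replicate 1 (adjusted p between 0.0947 and 0.367). The part of other cells in the results was not tested beyond these values.

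The remaining gene lists had few or no members past the test. Over all genes tested, 1.23% rose and 3.81% fell. Of 45 cell division genes 1 fell (CDT1) and none rose, and of 22 p53 targets and cell cycle inhibitors 1 fell, CDKN1C, a brake on the cell cycle that went from 27 and 26.1 TPM to 9.55 and 7.72 TPM (log2 fold change -1.52, SE 0.29, adjusted p = 0.000587). Of 12 DNA methylation genes GADD45B fell and none rose, and the maintenance enzyme gene DNMT1 was at 27.4 and 26.9 TPM and then at 25.6 and 29.9 TPM. One gene each fell among 19 BMP targets (SMAD6), 16 WNT targets (NOTUM) and 21 genes of cholesterol synthesis (NSDHL), and none rose. Among 28 genes of glycolysis and hypoxia EGLN3 rose and PFKP fell, among 19 interferon response and antigen presentation genes B2M rose, and among 58 subunits of oxidative phosphorylation ATP5MF rose. Of 58 cytosolic ribosomal protein genes RPS4X and RPS18 rose and none fell, and the list had a median of 0.09. In 37 of the 58 both day 70 libraries lay above both day 40 libraries, against 16.9% of all genes. After quantile normalization 0 genes of this list passed upwards (adjusted p = 0.629 for RPS4X in limma) and 1 downwards, and its median was 0.02. Of the genes that rose or fell in these lists, CDT1 and CDKN1C alone kept an adjusted p under 0.05 without any 1 of the 4 libraries.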

How the data were processed

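Poly(A) RNA of BT(+) cells was sequenced and processed by the authors, who used STAR for mapping to a marmoset genome (Callithrix_jacchus_cj1700_1.1), a filter on mapping quality, which lowers genes with near-identical copies, and RSEM for estimating expression. The deposited table holds TPM values with 2 decimals for 14812 genes shared by marmoset and human, and no read counts, so the depth and its error are unknown. Reads of carried-over mouse RNA were not separated as far as the sources used here say.

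TPM was transformed to log2(TPM + 1), and genes above 1.5 in at least 1 of 54 libraries were kept (11197). Limma 3.58.1 in R 4.3.3 fitted 1 mean for each of 27 conditions (27 residual degrees of freedom, intensity trend), as 2 libraries a day allow no useful exact test (the smallest 2-sided permutation p is 0.333). The test was tried on simulated data. Named genes were DAZL, DDX4, OOEP, ASZ1, up to 12 DEGs with the largest change in each direction that have a gene symbol, PRDM1, NANOS3 and members of gene lists. The comparison and the lists were chosen with earlier results of these data known. The lists are described by counts and medians, with no test of a list. Alternatives were another pseudocount (0.1), no filter, fewer libraries in the fit, a replicate block, 2 other scalings, no intensity trend and leaving out each library. The result of 1 listed gene is not reported here.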

Additional observations from a re-analysis of the deposited data

How the results depend on the processing

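The count of DEGs stayed between 19 and 30 (24 as reported) with a pseudocount of 0.1, without a filter, without the intensity trend, under both scalings and without any 1 library. The genes and the balance moved more than the count, since with a pseudocount of 0.1 there were 8 DEGs higher and 11 lower, 13 of them shared with the 24. The count was 0 when only the 4 libraries of day 40 and day 70 entered limma (21 genes passed its fold, level and an unadjusted p of 0.01) and 9 with the 8 libraries of day 6 and the xrOvary. The count at an adjusted p of 0.05 (565) was 0 and 221 in these 2 fits and 282 to 355 without 1 library, where a lone library of a day is assumed to vary like the other groups. Of 76 named or listed genes, 33 lost their call without 1 library, and none changed direction. Replicate numbers did not pair the libraries (correlation of deviations of same-numbered libraries -0.00566). The fit with a replicate block gave 24 DEGs and 550 genes past an adjusted p of 0.05, and of the listed genes only RPS18 and SMAD6 lost their call in it. Depth is unknown, so the error of genes near 0 TPM is known only from the spread of 2 libraries.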

Other observations

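Some further genes, all chosen after their values were seen, stood beside the groups described above. All 30 aminoacyl-tRNA synthetase genes, which load amino acids onto tRNAs and of which several are known targets of ATF4, were in the table, 5 rose and none fell at an adjusted p of 0.05 in limma (1.23% of all genes tested rose), and the family median was 0.04. YARS1 was at 87.1 and 87.7 TPM at day 40 and at 133 and 137 TPM at day 70 (log2 fold change 0.62, SE 0.10), WARS1 rose by 0.66, AARS1 by 0.52, GARS1 by 0.49 and MARS1 by 0.41. STC2, a secreted glycoprotein, was at 0.69 and 0.98 TPM and then at 6.49 and 3.65 TPM, and the glutamine transporter gene SLC1A5 at 1.52 and 0.49 TPM and then at 3.84 and 4.50 TPM.

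Among genes known from testis and tumours, MAGEB2 was at 0.67 and 1.32 TPM and then at 4.32 and 5.27 TPM, FAM47C at 0.22 and 0.44 TPM and then at 4.74 and 4.08 TPM, and FTHL17 was listed at 0 in both libraries of day 40 and was at 0.77 and 3.62 TPM at day 70. Among secreted proteins, TF (transferrin) was at 44.4 and 36.7 TPM and then at 13.9 and 19.0 TPM, and WFDC2 at 7.67 and 3.13 TPM and then at 0.51 and 0 TPM. IGFBP1 was at 22.1 TPM in day 40 replicate 1 and listed at 0 in the other 3 libraries.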
